A study of Mus musculus with 12 samples.

Results

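The 9 genes of TNF receptor signalling and NF-kB on the nCounter Mouse Inflammation V2 panel were Tnf, Tnfaip3, Nfkb1, Rela, Relb, Traf2, Tradd, Ripk1 and Birc2. They were chosen by name as known parts of this pathway, and all 9 were found among the 248 inflammation-related genes tested. Their mRNA was compared between blood monocytes (6 samples) and Kupffer cells, the resident macrophages of the liver (6 samples), from Balb/C mice without any labelled treatment. By the labels each sample was a pool of sorted cells from 5 mice, and by the methods from 4 to 5. Cells were picked with anti-F4/80 magnetic beads in both cases, the liver after perfusion and digestion with collagenases and the blood after a density gradient, so tissue and isolation cannot be told apart from cell type. The age and sex of the mice were not in the labels, and the labels do not say that samples shared no mice, so p-values measure the spread between these pools.

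TNF is a cytokine made as a membrane protein by activated macrophages and other leukocytes. When it binds its type 1 receptor, the adaptor TRADD joins the receptor, followed by the kinase RIPK1, the adaptor TRAF2 and the ubiquitin ligase cIAP1, which Birc2 encodes. Ubiquitin chains built there activate the kinases that free NF-kB, a dimer of Rel proteins, to enter the nucleus. The most common dimer joins p50, cut from the Nfkb1 product, to RelA, while RelB acts mainly in the slower non-canonical branch. A20, the product of Tnfaip3, is induced by NF-kB, edits ubiquitin on RIPK1 and so closes a negative feedback loop.

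Promoter sequence is shown for Tnf and Tnfaip3, the inducer and the feedback gene on which the comparison turns. The RefSeq table (GRCm38.p6) matched 6 of the 9 genes by symbol, Tnf, Tnfaip3, Rela, Traf2, Ripk1 and Birc2, and the 250 bases before each transcription start were searched for the kappa-B consensus, on both strands, and for TATAAA starting 40 to 20 bases before the start, on the gene's strand. The run of Tnf lies at chr17:35202008-35202257 and that of the upstream start of Tnfaip3 at chr10:19015411-19015660, both on the minus strand. Capitals mark TATAAA in Tnf and the kappa-B matches in Tnfaip3.
Tnf: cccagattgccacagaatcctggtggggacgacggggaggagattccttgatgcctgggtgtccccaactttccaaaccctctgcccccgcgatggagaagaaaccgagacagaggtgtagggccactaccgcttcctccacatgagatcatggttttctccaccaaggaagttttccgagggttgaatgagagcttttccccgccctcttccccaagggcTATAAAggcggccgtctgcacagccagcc
Tnfaip3: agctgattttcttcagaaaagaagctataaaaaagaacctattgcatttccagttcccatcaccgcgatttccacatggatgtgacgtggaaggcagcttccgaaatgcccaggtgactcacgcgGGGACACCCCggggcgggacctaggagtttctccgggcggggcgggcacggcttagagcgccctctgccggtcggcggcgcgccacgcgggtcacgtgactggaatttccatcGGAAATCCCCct
TATAAA began 29 bases before the start of Tnf and was found in this window in 1.99% of all 32851 promoters, and in none of the other 5 genes matched. The kappa-B consensus was found before the upstream start of Tnfaip3 at 2 places, starting 125 and 12 bases before it. The consensus was found neither before the other start of Tnfaip3 nor in the other 5 genes in this window. It stood in 8.23% of all genes and in 32 of the 181 panel genes with a promoter sequence (17.7%). Of these 32 panel genes, 13 were higher and 9 lower in Kupffer cells, with a median log2 fold change of 0.03, against 53 higher, 28 lower and a median of 0.12 in the 149 panel genes without a match. A match is a stretch of letters and not a measured binding site.

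In the nanostring approach colour-coded reporters hybridised to mRNA are counted one by one. The values are normalized counts, scaled by the authors with 1 factor per sample from positive controls and housekeeping genes. Dividing by that factor returned 162988 to 348248 counted molecules for each of the monocyte samples, against 84401 to 145662 for the Kupffer cells, and all 9 genes stood above the background in all 12 samples, as did 160 of the 248 genes. The housekeeping genes themselves differed: Gusb was 933 ± 166 normalized counts in monocytes against 324 ± 62.7 in Kupffer cells, while Gapdh was 1704 ± 58.6 and 2971 ± 912 (SD, n = 6 samples each). Of 12 macrophage and monocyte markers 9 were on the panel; 7 were lower and 1, Cd163, higher in Kupffer cells, their sum was 17111 to 27501 normalized counts in monocytes, against 6394 to 11218 in Kupffer cells, and Trem2 was at the background in all 6 Kupffer cell samples and in 4 of the 6 monocyte samples. Mrc1, which encodes CD206 and was not in this list, was higher in Kupffer cells (log2 fold change 0.68, limma adjusted p = 0.0403). Further markers that define Kupffer cells were not analysed here. Of 9 T and NK cell genes 6 were higher in Kupffer cells. The summed level of the 9 was 8649 to 34815 in Kupffer cells against 2977 to 5953 in monocytes. Without Ccl5, which gave most of the sum, it was 1431 to 2157 against 666 to 1097. None of the 9 was at the background in all samples of a cell type. However, Il2, Il17a and Il4 were at it in 5 of the 6 monocyte samples, and Il17a is among the 6 called higher. All 10 genes of proteins secreted by hepatocytes were higher in Kupffer cells (summed level 4497 to 15348, against 63.1 to 270.0 in monocytes, where C8a, C8b, C9, Hc, Masp1, Kng1 and Crp were at the background in all samples). The part of these other cells in the results that follow was not tested. In such bulk samples fewer cells of a type and less mRNA per cell cannot be told apart.

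Of the 9 genes, 3 were higher in Kupffer cells (Tnf, Traf2 and Tradd), 1 was lower (Tnfaip3) and 5 did not pass the test. Tnf, the cytokine, showed the largest difference, 2.39-fold, and Traf2 followed with 1.79-fold. The NF-kB subunit genes Nfkb1, Rela and Relb and the receptor complex genes Ripk1 and Birc2 stayed within a measured difference of 1.2-fold. Log2(normalized count + 1) was tested by limma, adjusted over all 248 genes by Benjamini-Hochberg, and genes were called at an adjusted p under 0.05, which 56.5% of all genes passed, 35.1% higher and 21.4% lower in Kupffer cells. Among the 160 genes above the background in all samples, to which the 9 belong, 65% passed, 40% higher and 25% lower. Whether the 4 of 9 called differ from these shares was not tested, and the count ran from 2 to 5 over the alternatives. Monocyte and Kupffer cell samples had no overlap in Tnf and Traf2, 2 of 9 genes, both higher in Kupffer cells, against 41.5% of all genes (25.8% higher and 15.7% lower). Tnf was the only 1 of the 9 past a 2-fold difference, as were 31% of all genes. The median size of the log2 fold change was 0.26 over the 9 genes, 0.64 over all genes and 0.59 over the 160 genes above the background in all samples.

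**Figure D1:**
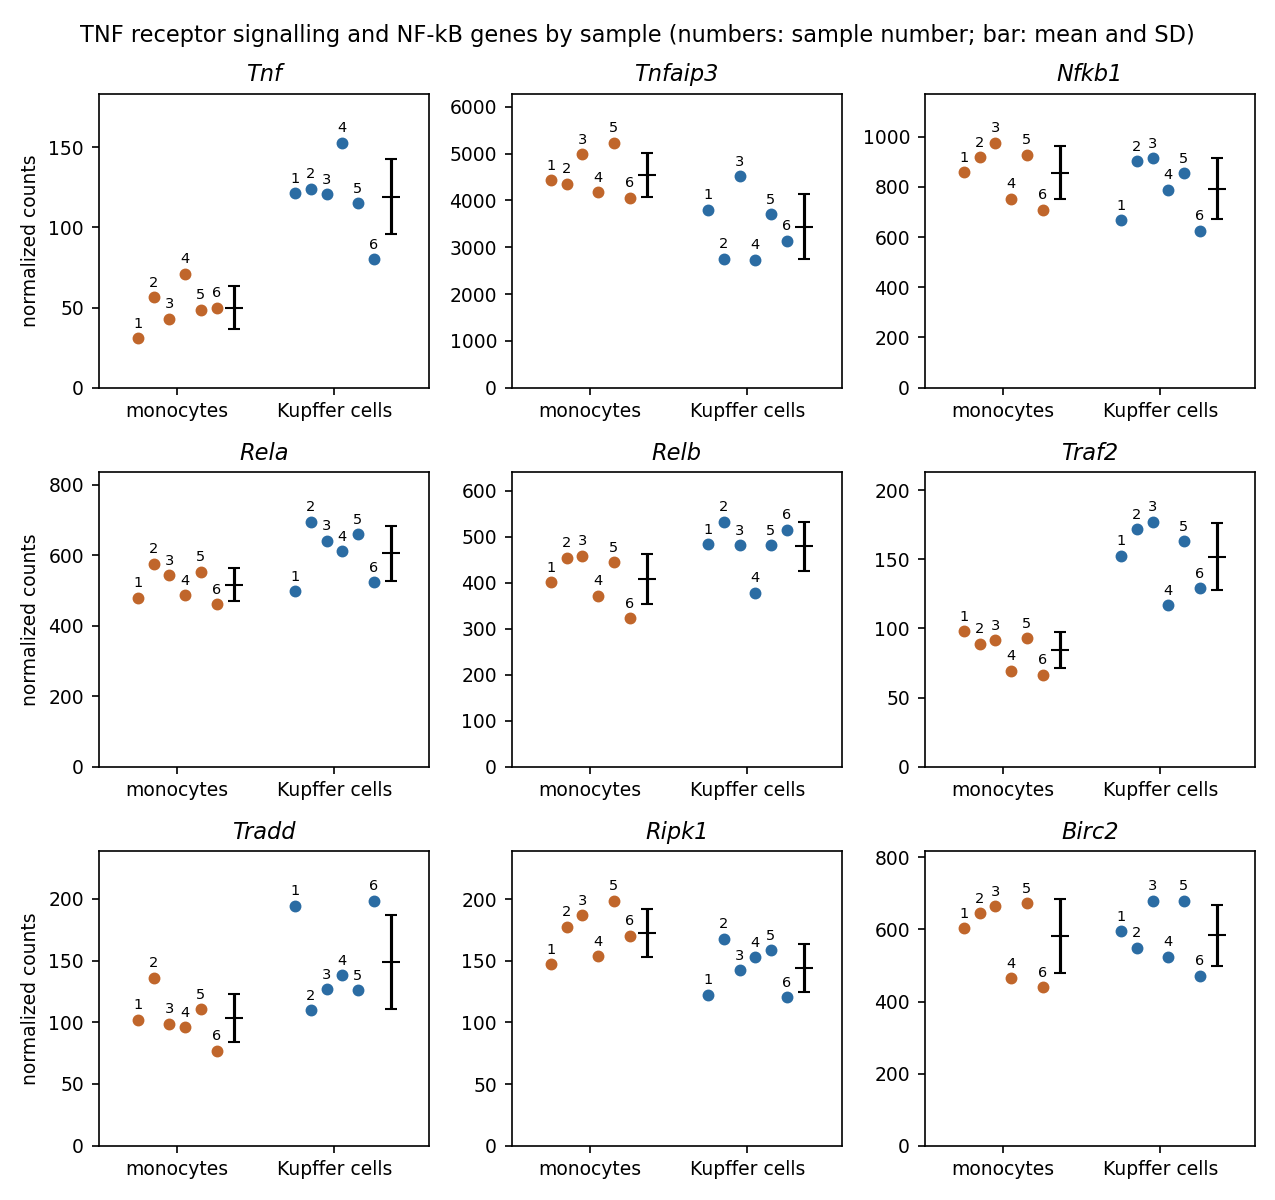
Normalized counts (vertical axis, from 0) of the 9 genes in the 6 monocyte samples (orange) and the 6 Kupffer cell samples (blue), with the sample number beside each point and the mean and SD as a bar. All 6 Kupffer cell samples lie above all 6 monocyte samples for Tnf and Traf2, and the cell types overlap in the other 7 genes.

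Tnf had a lowest, median and highest value of 30.7, 49.2 and 71.1 normalized counts in monocytes and of 80.3, 121 and 153 in Kupffer cells. Every Kupffer cell sample was above every monocyte sample, with monocyte sample 4 the highest and Kupffer cell sample 6 the lowest of their groups. The means were 49.9 ± 13.5 and 119 ± 23.2 (SD, n = 6 samples each), with a log2 fold change of 1.26 ± 0.20 (SE, limma adjusted p = 0.000118). Tnf rested on few molecules, 38 at the lowest in a Kupffer cell sample and 43 in a monocyte sample, for which counting alone gives a relative error of up to 16.2%. The call held in all 24 alternatives run, but the log2 fold change was 0.60 after quantile normalization (adjusted p = 0.00857, the highest of the alternatives, with 3.18e-05 the lowest).

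Tnfaip3, which encodes the feedback inhibitor A20, moved the other way. Its lowest, median and highest values were 4052, 4390 and 5235 normalized counts in monocytes and 2730, 3422 and 4517 in Kupffer cells. Kupffer cell sample 3, the highest of its group, lay above 4 of the 6 monocyte samples, and Kupffer cell samples 2 and 4 were the lowest. The means were 4538 ± 470 and 3442 ± 697 normalized counts (SD, n = 6 samples each), 1.33-fold lower in Kupffer cells, with a log2 fold change of -0.42 ± 0.15 (SE, limma adjusted p = 0.0276). This call was lost without any one of Kupffer cell samples 2, 4 and 6 or monocyte samples 3 and 5 (adjusted p from 0.0533 to 0.0643). It was also lost after quantile normalization (log2 fold change -0.16, adjusted p = 0.479). Rescaling to the housekeeping genes Cltc, Gusb and Pgk1, without Gapdh, lost it too (adjusted p = 0.117). The methods also name Hprt and Tubb5 for scaling, which this rescaling did not use. Over all alternatives the adjusted p ran from 0.00684 to 0.479, and the sign was negative in every one.

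Of the NF-kB subunit genes, none was called. Nfkb1, whose product p105 is the precursor of p50, had 708 to 976 normalized counts in monocytes (median 888) and 626 to 914 in Kupffer cells (median 821). Its log2 fold change was -0.12, with a 95% interval of -0.42 to 0.18 (adjusted p = 0.462 from limma). Kupffer cell samples 1 and 6 were the lowest of their group, and without this pair the log2 fold change was 0.021.
Rela, which encodes the transactivating subunit of the common dimer, had 462 to 576 normalized counts in monocytes (median 516) and 498 to 696 in Kupffer cells (median 627). The log2 fold change was 0.22, with a 95% interval of -0.05 to 0.49 (adjusted p = 0.131). Here too Kupffer cell samples 1 and 6 were the lowest of their group, and without them Rela was called higher (log2 fold change 0.34, adjusted p = 0.0242, range 0.0242 to 0.803 among the alternatives).
Relb had 323 to 459 normalized counts in monocytes (median 424) and 378 to 534 in Kupffer cells (median 483). The log2 fold change was 0.23, with a 95% interval of -0.06 to 0.52 (adjusted p = 0.141, range 0.0463, by the exact rank test, to 0.865 among the alternatives). Kupffer cell sample 4 stood apart below the others of its group, which began at 481.

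Among the genes of the receptor complex, Traf2 had 66.4 to 97.9 normalized counts in monocytes (median 90.3) and 117 to 177 in Kupffer cells (median 158), with no overlap. The means were 84.5 ± 13.3 and 152 ± 24.2 normalized counts (SD, n = 6 samples each), with a log2 fold change of 0.84 ± 0.15 (SE, limma adjusted p = 0.000326). It was called in all 24 alternatives, with log2 fold changes from 0.47, after quantile normalization, to 0.94.
Tradd, the first adaptor at the receptor, had 77.0 to 136 normalized counts in monocytes (median 101) and 110 to 199 in Kupffer cells (median 132). Kupffer cell samples 1 and 6, at 194 and 199, stood above all other samples, while the other 4 Kupffer cell samples lay between 110 and 138. The log2 fold change was 0.50 ± 0.18 (SE, limma adjusted p = 0.0303). Without Kupffer cell samples 1 and 6 it was 0.29 (adjusted p = 0.149), and the call was also lost without any one of Kupffer cell samples 1 and 6 or monocyte samples 1, 3, 4 and 6, without monocyte samples 4 and 6 together (0.38, adjusted p = 0.140), with samples rescaled to their median gene (0.25, adjusted p = 0.300) and after quantile normalization (0.15, adjusted p = 0.529, the highest of the alternatives, with 0.0115 the lowest).
Ripk1, the kinase that carries the ubiquitin chains, had 147 to 199 normalized counts in monocytes (median 174) and 120 to 168 in Kupffer cells (median 148). The log2 fold change was -0.26, with a 95% interval of -0.54 to 0.02 (adjusted p = 0.1 from limma).
Birc2 had 439 to 672 normalized counts in monocytes (median 624) and 471 to 680 in Kupffer cells (median 572). Its log2 fold change was 0.01, with a 95% interval of -0.32 to 0.35 (adjusted p = 0.94), and only 0.403% of all genes had a smaller change.

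The choice of scaling bears on these values, and the housekeeping genes differed between the cell types. Rescaling each sample to its median gene lowered the log2 fold change of the median gene by 0.26, and that of each of the 9 genes by about as much. Ripk1 was then called lower in Kupffer cells (log2 fold change -0.52, adjusted p = 0.00204, range 0.00098 to 0.314 among the alternatives), as was Nfkb1 (-0.38, adjusted p = 0.027, range 0.000952 to 0.921), and both were also called after quantile normalization (-0.56 and -0.34). Rela, Relb and Birc2 had log2 fold changes of -0.039, -0.031 and -0.25 after the rescaling and -0.061, -0.20 and -0.27 after quantile normalization, none of them called. Tnf and Traf2 were called higher under each of these scalings. Over all genes, 87 were higher and 53 lower as deposited, 68 and 108 after the rescaling, 62 and 68 after quantile normalization, and 140 and 48 with the background multiplied by the factor of the sample, which left the values of the 9 genes as they were.

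**Figure D2:**
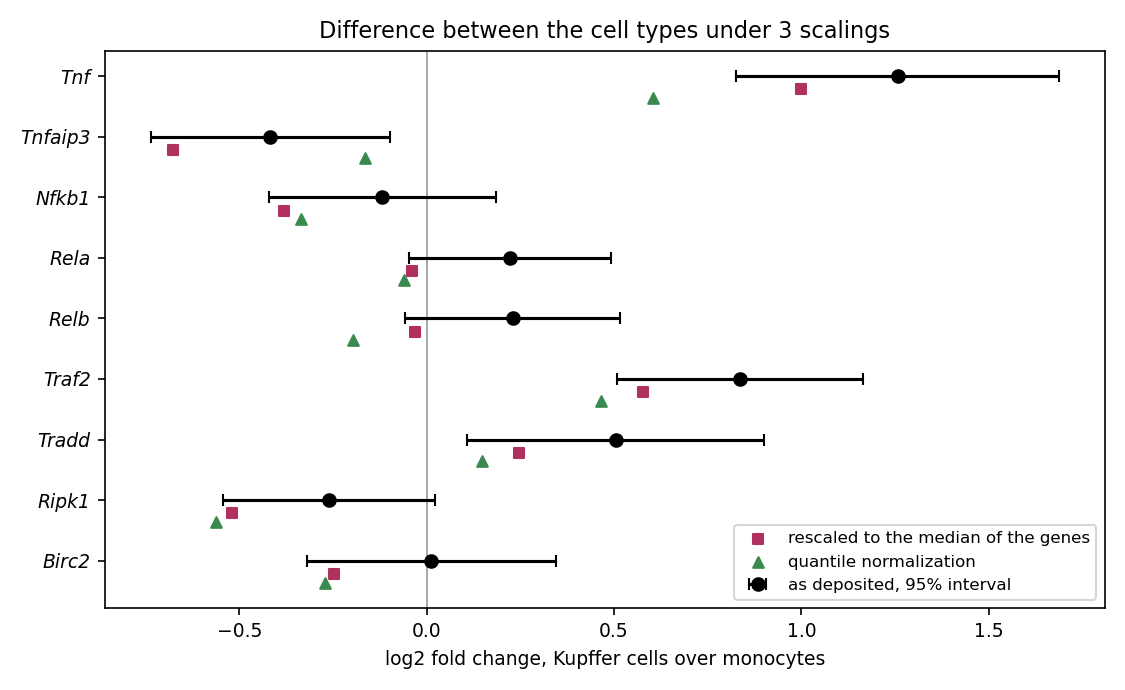
Log2 fold change of Kupffer cells over monocytes (horizontal axis) for the 9 genes as deposited (black, with the 95% interval from limma), with each sample rescaled to its median gene (red squares) and after quantile normalization (green triangles). Tnf and Traf2 lie above 0 and Tnfaip3 below it under all 3, whereas Rela, Relb and Birc2 change sign.

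A ratio of 2 genes within a sample does not depend on the factor of that sample, and 7 ratios of partners in the pathway were compared by an exact permutation test over all assignments of samples (two-sided, smallest possible p = 0.00216), with adjustment over the 7. The log2 ratio of Tnf to Tnfaip3, inducer to feedback gene, was -6.52 ± 0.46 in monocytes against -4.84 ± 0.44 in Kupffer cells (SD, n = 6 samples each), 3.19-fold higher in Kupffer cells (exact p = 0.00216, adjusted p = 0.00379). Its highest monocyte value was -5.86 and its lowest Kupffer cell value -5.27, so the cell types did not overlap. The ratio of Tnf to Nfkb1 was 2.60-fold higher (log2 difference 1.38, standard error 0.23, exact p = 0.00216, adjusted p = 0.00379), again without overlap.
The ratio of Nfkb1 to Rela, the precursors of the common dimer, was lower in all 6 Kupffer cell samples than in all 6 monocyte samples, although neither gene was called alone. Its log2 value was 0.62 to 0.84 in monocytes but 0.25 to 0.51 in Kupffer cells, 1.27-fold lower (log2 difference -0.34, standard error 0.05, exact p = 0.00216, adjusted p = 0.00379). The SD of this ratio was 0.10 and 0.08 within monocytes and Kupffer cells. On the log2 scale the SD was 0.18 and 0.23 for Nfkb1 itself and 0.13 and 0.19 for Rela.
The ratio of Birc2 to Traf2, whose products bind each other, was 1.77-fold lower in Kupffer cells (log2 difference -0.82, standard error 0.08, exact p = 0.00216, adjusted p = 0.00379). The groups were apart here too, at 2.61 to 2.85 and 1.67 to 2.16. Tnf and Traf2 were without overlap alone, as were 41.5% of all genes. How often ratios of other gene pairs on the panel separate the cell types was not tested.
For Ripk1 to Tradd the log2 difference was -0.77 (standard error 0.25, exact p = 0.00866, adjusted p = 0.0121), but the cell types overlapped and Kupffer cell samples 1 and 6 had the lowest values. Without these Kupffer cell samples the log2 difference was -0.43 (adjusted p = 0.0444 by the exact test), and without monocyte samples 4 and 6 it was -0.68 (adjusted p = 0.08). Tnfaip3 to Nfkb1 (log2 difference -0.30, standard error 0.15, adjusted p = 0.0808 by the exact test) and Relb to Rela (0.01, standard error 0.11, adjusted p = 0.95) did not pass. The first was past the threshold without Kupffer cell sample 1 (-0.38, adjusted p = 0.0152) and without samples 1 and 6 (-0.45, adjusted p = 0.0133).

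**Figure D3:**
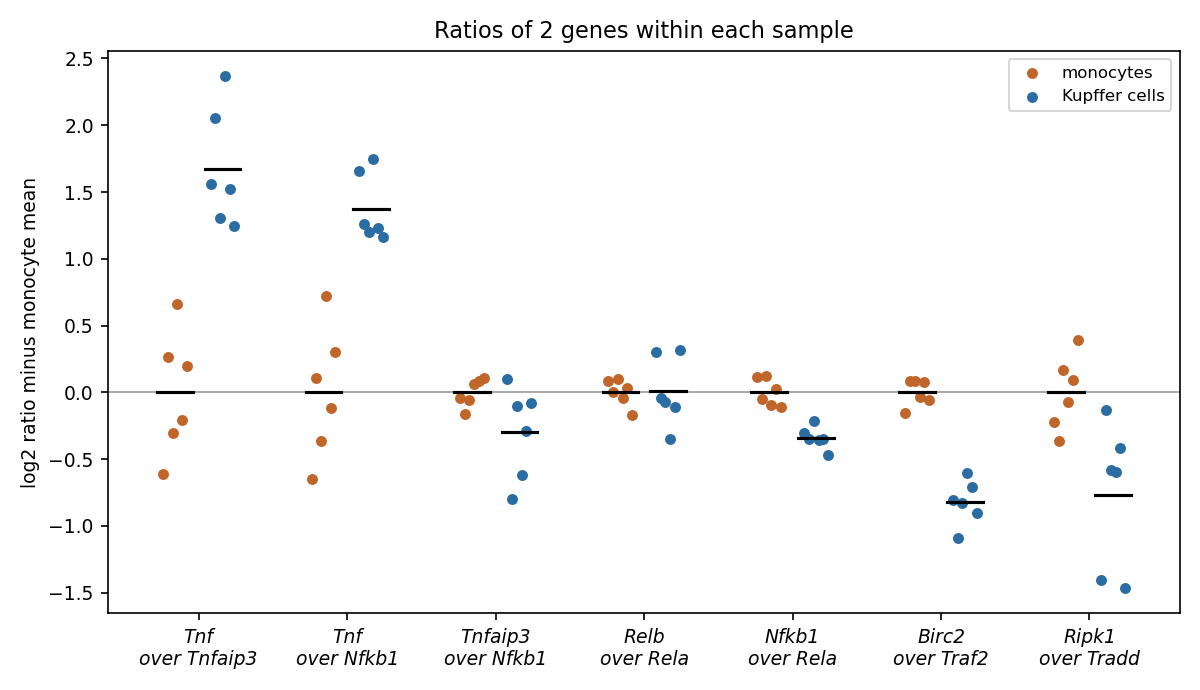
Log2 ratio of 2 genes within each sample, minus the mean of the monocyte samples (vertical axis), for the 7 ratios, in monocytes (orange) and Kupffer cells (blue), with group means as black lines. The cell types do not overlap in Tnf over Tnfaip3, Tnf over Nfkb1, Nfkb1 over Rela and Birc2 over Traf2. The share of other gene pairs without overlap was not tested.

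Set against the mean of the adaptor and subunit genes (7 genes) in the same sample, Tnf differed by -3.17 to -1.81 on the log2 scale in monocytes, and in Kupffer cells by -1.91 to -0.98, with Kupffer cell sample 6 below monocyte sample 4. Tnfaip3 exceeded this mean by 3.77 to 4.10 in monocytes and by 2.99 to 3.69 in Kupffer cells, without overlap. These are differences of levels between genes read by different probes, and the change between the cell types is the part that can be read. The mean itself was 8.16 ± 0.18 in monocytes against 8.36 ± 0.09 in Kupffer cells (SD, n = 6 samples each).

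Within a cell type the 9 genes varied to different degrees. In monocytes the log2 SD of Tnf, 0.39, was larger than that of 86.9% of the 160 genes above the background in all samples, while that of Rela, 0.13, was larger than that of 17.5%. In Kupffer cells the largest SD among the 9 was that of Tradd, 0.35, and the smallest that of Relb, 0.17, larger than those of 49.4% and 12.5% of these genes.
Monocyte samples 4 and 6 were the lowest pair of their group in 6 of the 9 genes, Tnfaip3, Nfkb1, Relb, Traf2, Tradd and Birc2. This pair was the lowest in 66 of the 160 genes as well (41.3%). Both samples also had the lowest summed level of T and NK cell genes (3784 and 2977 normalized counts, the others 4667 to 5953) and the highest of macrophage and monocyte genes (25012 and 27501, the others 17111 to 20860).
In Kupffer cells samples 1 and 6 were the lowest pair in Nfkb1, Rela and Ripk1, as in 35% of the 160 genes, and the highest pair in Tradd, as in 8.75%. They also had the highest summed level of T and NK cell genes (34815 and 18134, the others 8649 to 12291; without Ccl5 they were the lowest, at 1446 and 1431) and the lowest of macrophage genes (6394 and 6507, the others 8850 to 11218). Of the housekeeping genes used for scaling, Gapdh was highest in Kupffer cell samples 1 and 6 (4159 and 4084 normalized counts, the others 2159 to 2741). Gusb was lowest in them (244 and 258, the others 331 to 409). Whether these monocyte and Kupffer cell samples differ in their cells was not tested, and neither was the part of the scaling.

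**Figure D4:**
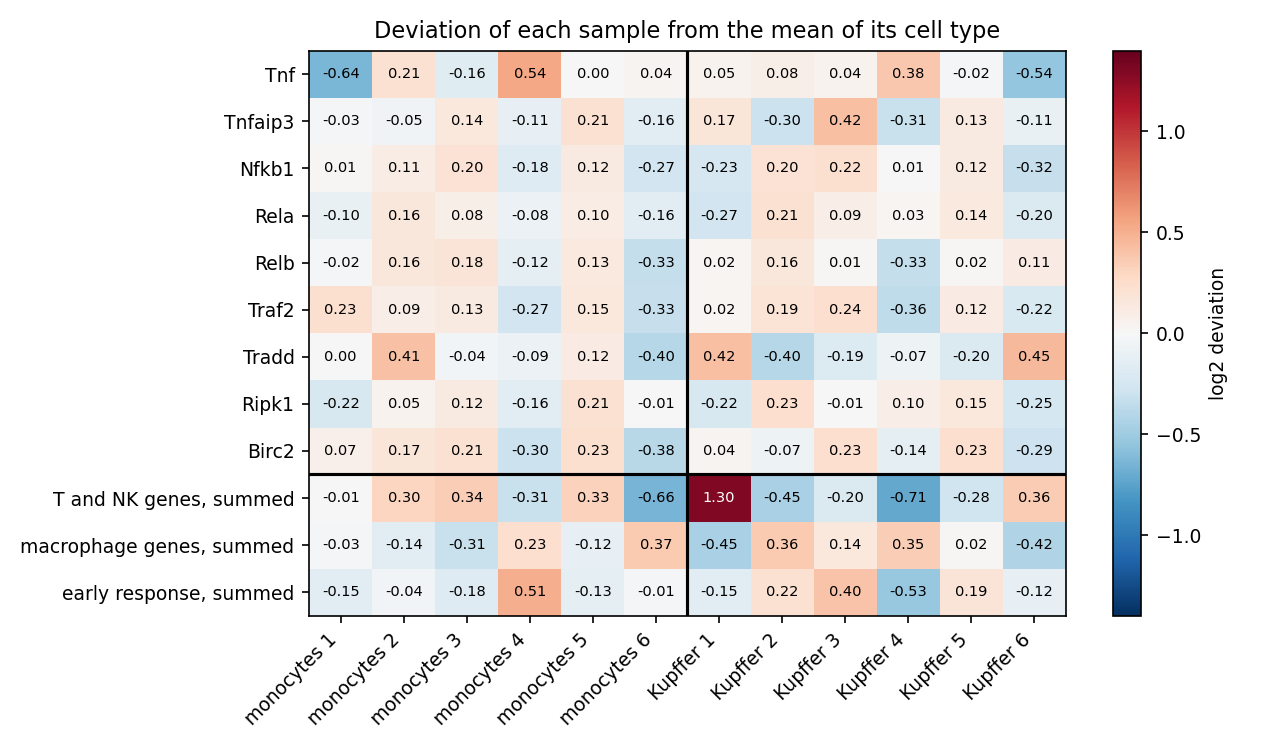
Deviation of each sample (columns) from the mean of its cell type on the log2 scale (colour and printed value) for the 9 genes and, below the line, for the summed levels of T and NK cell, macrophage and early response genes. Monocyte samples 4 and 6 lie below 0 in Tnfaip3, Nfkb1, Relb, Traf2, Tradd and Birc2, and Kupffer cell samples 1 and 6 lie above 0 in Tradd.

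The other genes of the pathway were followed in 4 lists without the 9 genes. They were counted on the values as deposited, where 35.1% of all genes were higher and 21.4% lower in Kupffer cells. Counts of the lists under the other scalings were not made. Of 6 TNF superfamily genes, ligands and a receptor, 4 were higher in Kupffer cells and none lower, with a median log2 fold change of 0.74, against 0.05 over all genes. No sample was at the background in these 6 genes, but the 0.05 includes genes that were. The listed background averaged 18.8 in monocytes and 10.8 in Kupffer cells. Keeping only the 196 genes that exceeded it in 6 or more samples gave a median of 0.27. Scaling the background by the factor of each sample gave 0.58 over all 248 genes. Tnfsf14, the ligand LIGHT, averaged 89.7 ± 14.7 normalized counts in monocytes against 311 ± 67.1 in Kupffer cells (SD, n = 6), with a log2 fold change of 1.77 (limma adjusted p = 7.34e-07). Cd40lg, the T cell ligand of CD40, averaged 130.1 ± 27.7 in monocytes and 256 ± 59.7 in Kupffer cells (log2 fold change 0.96, adjusted p = 0.00106), and Fasl, the death ligand of cytotoxic cells, averaged 73.7 ± 15.0 and 132 ± 26.3 (0.83, adjusted p = 0.00153). These last 2 are among the T and NK cell genes whose sum was given above.
Lta and Ltb, which encode the lymphotoxins, are the genes on either side of Tnf (GRCm38.p6). Lta was higher in Kupffer cells, at 33.9 to 67.4 normalized counts, than in monocytes, at 26.1 to 45.1 (log2 fold change 0.65, adjusted p = 0.0182 from limma), with overlap. Ltb averaged 2147 ± 493 normalized counts in monocytes against 2685 ± 581 in Kupffer cells (log2 fold change 0.33, adjusted p = 0.149), and Cd40 had a log2 fold change of 0.06 (limma adjusted p = 0.791).

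Of 6 further adaptor and NF-kB pathway genes, 2 were higher and 1 lower in Kupffer cells (median log2 fold change 0.19). Map3k7, which encodes the kinase TAK1 that acts between the ubiquitin chains and the IkB kinases, averaged 386 ± 41.2 normalized counts in monocytes against 693 ± 139 in Kupffer cells (SD, n = 6), with a log2 fold change of 0.83 (limma adjusted p = 0.000319). The 2 intracellular sensors of bacterial peptidoglycan differed in sign: Nod1 had a log2 fold change of 0.58 (limma adjusted p = 0.00305) and Nod2 of -0.72 (adjusted p = 0.00754). Ripk2, the kinase both sensors use, had a log2 fold change of -0.41 (limma adjusted p = 0.0815), and Myd88 and Tollip had 0.18 and 0.19, none of them called.
The MAP kinase branch is activated by the same receptors beside NF-kB. Of its 22 listed genes, 12 were higher in Kupffer cells and none was lower as deposited (median log2 fold change 0.39). Over all genes 35.1% were higher and 21.4% lower. Whether the list keeps these calls under the other scalings was not tested. Map3k7 is counted here too, and 3 of the 22 were at the background in some samples. Fos and Jun, which form the factor AP-1, had the largest differences. Fos averaged 3804 ± 950 normalized counts in monocytes and, higher in every sample, 14818 ± 3283 in Kupffer cells, with a log2 fold change of 1.96 (limma adjusted p = 1.07e-06). For Jun the log2 fold change was 2.31 (adjusted p = 8.75e-07). Map2k6, a kinase upstream of p38, averaged 64.8 normalized counts in monocytes against 137 in Kupffer cells (log2 fold change 1.05, adjusted p = 0.000338). Fos and Jun are also induced by the isolation of cells. Of 5 such early response genes 4, Fos, Jun, Ccl3 and Ccl4, were higher in Kupffer cells. The remaining gene, Myc, had a log2 fold change of -0.41 and was not called (limma adjusted p = 0.0607). The summed level of the 5 was 15523 to 29599 in Kupffer cells against 5544 to 8975 normalized counts in monocytes, with no overlap. Monocyte sample 4, the highest of its group in Tnf, also had the highest early response sum of its group (8975, the others 5544 to 6240), while Kupffer cell sample 4, the highest of its group in Tnf, had the lowest (15523, the others 20275 to 29599). None of the 5 was at the background in all samples of a cell type, and their part in the difference of Tnf was not tested.

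Of 28 genes that NF-kB is known to induce, 12 were higher and 4 lower in Kupffer cells and 12 did not pass (median log2 fold change 0.19). Of the 28, 11 were at the background in at least 1 sample, and Lta, Ltb and Cd40 are counted here too. The lower ones were the neutrophil chemokine genes Cxcl1 and Cxcl2, with log2 fold changes of -4.69 and -4.81, the cytokine gene Il6 (-1.99) and the chemokine gene Ccl7 (-1.01, with 8 of 12 samples at the background). Among the higher ones were the chemokine genes Ccl4 (2.59), Ccl3 (2.03) and Ccl5 (1.69), the transcription factor gene Irf1 (0.80) and the complement genes C3 (5.54) and Cfb (1.51), which hepatocytes also express. Il1b (-0.65) and Ptgs2 (-0.26) were not called.

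**Figure D5:**
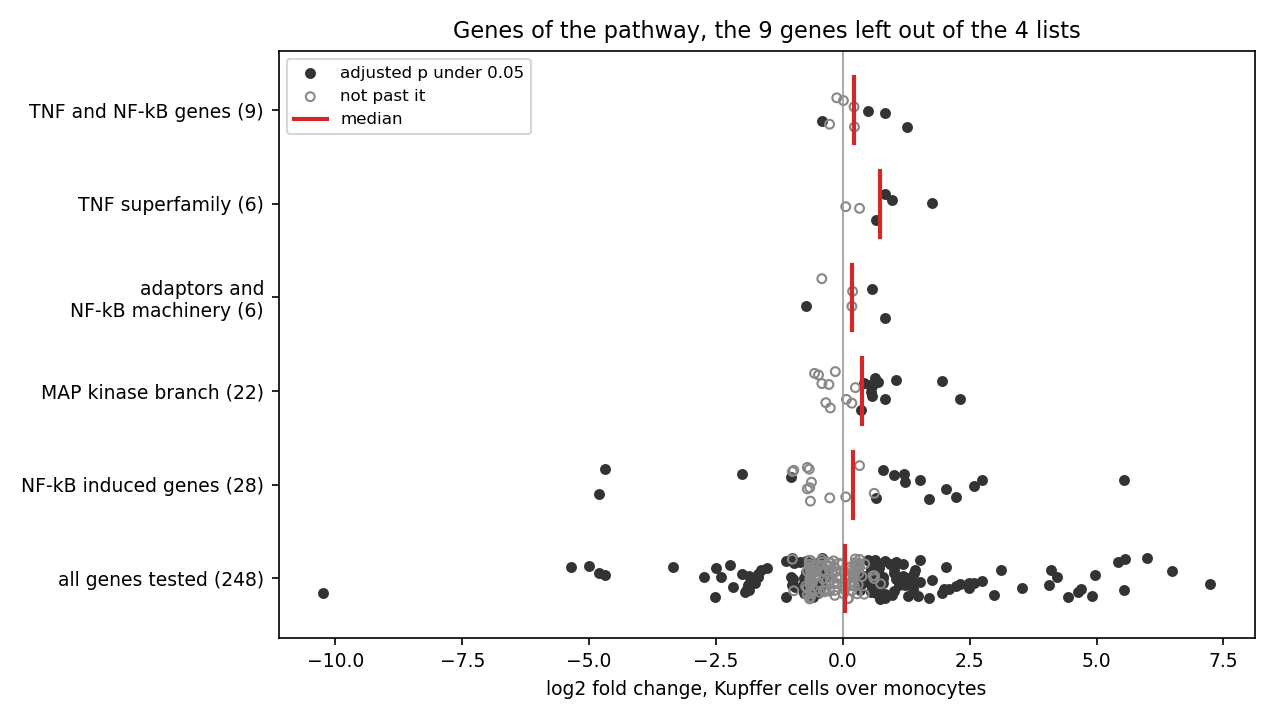
Log2 fold change of Kupffer cells over monocytes (horizontal axis) for the 9 genes, for the other genes of the 4 lists and for all 248 genes, each gene a point (filled where the adjusted p from limma was under 0.05), with the median as a red line. The 9 genes lie between -0.42 and 1.26, while the NF-kB induced genes spread from -4.81 to 5.54.

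The genes with the most similar profiles over the 12 samples were sought among the other 159 genes above the background in all samples, by the root mean square difference of log2 values after each gene was centred on its mean. This measure includes the difference between the cell types, and similarity within a cell type was not tested. For Tnf the nearest genes were the interferon-induced genes Ifi44 (0.31), Stat2 (0.35) and Mx2 (0.35), where the median over all genes was 0.75. Ifi44 averaged 394 ± 60.9 normalized counts in monocytes against 975 ± 248 in Kupffer cells (log2 fold change 1.28, adjusted p = 3.35e-05 from limma), and Stat2 and Mx2 had log2 fold changes of 1.49 and 1.41. For Tnfaip3 they were Smad7 (0.22), Mafk (0.22) and Rhoa (0.22), with a median of 0.56 over all genes. Rhoa, a small GTPase gene, was lower in all Kupffer cell samples than in all monocyte samples (log2 fold change -0.49, adjusted p = 0.00326), and Smad7 had a log2 fold change of -0.54 (limma adjusted p = 0.0223). Mafk was not called (-0.17, adjusted p = 0.243).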

How the data were processed

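Gene expression was measured with the nCounter Mouse Inflammation V2 panel from 100 ng of total RNA per sample. The deposited values are a signal, namely counts that the authors normalized in nSolver 4.0 by positive controls and housekeeping genes (geometric means), with genes under the highest of 8 negative controls listed at that count. The sample titles gave cell type and number. The scaling factor of a sample was taken as the unit that turns its values above the background into whole numbers (tolerance 0.02). The 248 genes were tested by limma 3.58.1 (R 4.3.3), two-sided, on log2(value + 1), calling genes at a Benjamini-Hochberg adjusted p under 0.05. Fold changes compare geometric means of value + 1, which understates low genes. Ratios were tested by exact permutation. Every adjusted p without another named test is from limma. Other steps ran in Python 3.11.15 with scipy 1.17.1, pandas 2.3.3, numpy 2.4.6 and matplotlib 3.10.9. Steps were tested on simulated data. The 9 genes and the lists were chosen with earlier results of these data known. The genes named are the 9, the 3 largest called differences of each list among genes above the background in all samples, the 3 nearest profiles of Tnf and Tnfaip3, and Fos and Jun; others were named after their values were seen. Depth was 84401 to 348248 counted molecules per sample, and counting errors given cover counting alone. Alternatives concerned the pseudocount, the filter, the scaling, the background, the test, a replicate block and samples left out. Other measurements of the study were not analysed here.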

Additional observations from a re-analysis of the deposited data

Results flagged for a closer look

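Relb in Kupffer cells had 1 sample far from the others of its group: sample 4, at 378 normalized counts, with a gap to the next sample of 0.701 of the range of the group on the log2 scale. It was the only one of the 32 groups of values examined in this way (9 genes and 7 ratios in 2 cell types), of which chance flags about 1 in 20. Leaving out each sample in turn gave a log2 fold change of Relb between 0.16 and 0.30.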

How the results depend on the processing

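Of the 9 genes, Tnf (log2 fold changes 0.60 to 1.4) and Traf2 (0.47 to 0.94) kept their direction and call in all 24 alternatives. The ratios of Tnf to Tnfaip3, Tnf to Nfkb1, Nfkb1 to Rela and Birc2 to Traf2 did so in 17 of 18. These 18 did not include quantile normalization, which can change a ratio and gave 0.60 for Tnf and -0.16 for Tnfaip3. Quantile normalization lost Tnfaip3 (-0.16) and Tradd (0.15), called Nfkb1 (-0.34) and Ripk1 (-0.56), and turned Rela (-0.061), Relb (-0.20) and Birc2 (-0.27). Rescaling to the median gene lost Tradd (0.25), called Nfkb1 (-0.38) and Ripk1 (-0.52), and turned Rela (-0.039), Relb (-0.031) and Birc2 (-0.25). Rescaling to Cltc, Gusb and Pgk1, without Gapdh, lost Tnfaip3 (-0.31). The exact rank test called Relb (0.23, adjusted p = 0.0463). The cause of these changes was not tested.
Leaving out each sample in turn gave 126 to 172 called genes, 2 to 4 of the 9 genes called (2, Tnf and Traf2, without monocyte sample 3 or Kupffer cell sample 6), and log2 fold changes of 1.13 to 1.37 for Tnf, -0.50 to -0.35 for Tnfaip3, -0.17 to -0.05 for Nfkb1, 0.18 to 0.28 for Rela, 0.16 to 0.30 for Relb, 0.77 to 0.91 for Traf2, 0.41 to 0.59 for Tradd, -0.31 to -0.21 for Ripk1 and -0.064 to 0.071 for Birc2. Birc2 was -0.034 without Kupffer cell sample 3 or 5, and -0.048 and -0.064 without monocyte sample 4 or 6. The log2 ratio differences ranged from 1.54 to 1.81 for Tnf over Tnfaip3, 1.25 to 1.52 for Tnf over Nfkb1, -0.38 to -0.20 for Tnfaip3 over Nfkb1, -0.054 to 0.080 for Relb over Rela, -0.37 to -0.31 for Nfkb1 over Rela, -0.87 to -0.77 for Birc2 over Traf2 and -0.89 to -0.63 for Ripk1 over Tradd.
The labels do not say whether the sample numbers pair the samples, which were treated as unpaired. The correlation of deviations of same-numbered samples, across genes, ran from -0.23 to 0.40, and 2 of 6 monocyte samples correlated best with their own number. Such correlations cannot decide whether same-numbered samples shared mice or a day. With the replicate block limma called 132 genes and lost Tradd (0.50, adjusted p = 0.0866). With permutations within numbers, 64 in all with a smallest p of 0.0313, the ratios kept their values of 1.67, 1.38, -0.34, -0.82 and -0.77 for Tnf over Tnfaip3, Tnf over Nfkb1, Nfkb1 over Rela, Birc2 over Traf2 and Ripk1 over Tradd, with an adjusted p of 0.0547 in the first 4 and 0.0875 in the last. The difference of medians of Relb over Rela was -0.071.
Chosen after seeing the data, leaving out Kupffer cell samples 1 and 6 gave 127 called genes, lost Tradd (0.29), called Rela (0.34) and Tnfaip3 over Nfkb1 (-0.45), and turned Nfkb1 (0.021) and Relb over Rela (-0.14). Without monocyte samples 4 and 6 there were 117, Tradd (0.38) and Ripk1 over Tradd (-0.68) were lost, and Birc2 (-0.16) and Relb over Rela (-0.046) turned. Counting error was highest for Tnf, at up to 16.2% in a sample, and reached 13.5% for Traf2, 13.2% for Ripk1 and 13.1% for Tradd.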
